A study of Homo sapiens with 63 samples.

Results

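COLO320DM is a human colorectal adenocarcinoma line, kept here in RPMI medium with FBS. The comparison described here set 3 libraries from cultures held in DMSO for 24 h against 3 held in DMSO for 6 h, which are 6 of the 63 libraries of the study. The members were taken by treatment and time from the sample labels, and the cells carried no compound other than the solvent. The rest of the study holds 3 DMSO libraries at 48 h and libraries treated with Helicon 4 or Helicon 4-neg. Those treatments were at 1, 3 and 10 µM for 6, 24 or 48 h. The DMSO libraries at 48 h and the 18 Helicon 4-neg libraries at 6 and 24 h are compared below. All libraries enter the estimate of spread. The labels give the solvent and the time, so time since DMSO was added, time in culture and any handling tied to the harvest cannot be told apart. The labels call the replicates biological without saying whether they were separate cultures. The p-values and SEs rest on the spread between replicates pooled over the groups of all 63 libraries, and that spread may be technical.

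Cells in a dish change their own surroundings: they use up amino acids, glucose and growth factors, acidify the medium and divide until they crowd. Medium change and handling are known to switch on short-lived programmes, among them the heat shock response, in which the factor HSF1 raises chaperones, and the serum response, in which actin and actin-binding genes rise with MRTF and SRF. ATF4 raises amino acid synthesis enzymes and transporters when amino acids are short or growth signals are strong, and genes of mitosis follow the share of cells in G2 and M phase through the DREAM complex, MYBL2 and FOXM1.

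For 4 genes on which the results turn, the 150 bases before the RefSeq transcription start (GRCh38.p14) are given, each with the motif of the regulator named above in capitals. The first is HSPA1B at chr6:31827588-31827737, plus strand, with a heat shock element core, GAANNTTC. That core was added after the data had been seen, and the longer heat shock element was not found in the HSPA1B promoter. The second is ASNS at chr7:97872409-97872558, minus strand, with the CARE letters TGATGNAA that ATF4 dimers read. The third is ACTG1 at chr17:81512800-81512949, minus strand, with a CArG box, the SRF motif, in a form with any A or T core. That form was also added after the data had been seen. The fourth is HMMR at chr5:163460482-163460631, plus strand, with 2 copies of TTTGAA, the cell cycle homology region bound by the DREAM complex.
HSPA1B: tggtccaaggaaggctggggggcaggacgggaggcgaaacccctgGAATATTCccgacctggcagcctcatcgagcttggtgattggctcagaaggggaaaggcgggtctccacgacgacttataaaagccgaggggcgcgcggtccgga
ASNS: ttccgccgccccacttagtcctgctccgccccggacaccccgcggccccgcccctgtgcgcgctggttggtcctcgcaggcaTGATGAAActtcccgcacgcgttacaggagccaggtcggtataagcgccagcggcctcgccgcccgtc
ACTG1: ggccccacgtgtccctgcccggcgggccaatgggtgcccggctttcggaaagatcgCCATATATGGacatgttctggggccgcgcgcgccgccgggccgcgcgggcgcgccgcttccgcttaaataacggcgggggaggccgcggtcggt
HMMR: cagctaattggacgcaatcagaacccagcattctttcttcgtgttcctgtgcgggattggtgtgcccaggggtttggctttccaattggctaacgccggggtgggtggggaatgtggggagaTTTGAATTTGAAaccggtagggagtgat

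Levels are in scaled CPM, read counts set relative to library size and divided by a library scaling factor. Over the 13962 listed genes a library had 17927624 to 23609155 reads at 6 h and 23538171 to 29361446 at 24 h, so depth went with time. DMSO 6 h replicate 2 stood apart from its group: the chi-square per gene was 8.39 against replicate 1 and 11.9 against replicate 3, beside 2.59 between those 2. Trends on exonic length and GC content took 15.0% of the variance of its deviations from the mean of all libraries, beside 2.10% and 0.911% in replicates 1 and 3 and 6.30% to 10.3% at 24 h. Of the markers, CDX2, a master regulator of intestinal epithelium, lay at 3279 to 3493, KRT8 at 144 to 161 and KRT18 at 58.3 to 69.4. The epithelial adhesion genes CDH1, at 0.057 to 1.97, and EPCAM, at 1.10 to 3.92, were close to the floor, and VIL1 was not listed. The epithelial label thus rested on CDX2, KRT8 and KRT18. Of 24 intestinal differentiation genes sought, 9 were listed. The 17 neuroendocrine genes tested had a summed level of 928 to 1012 at 6 h and 1093 to 1119 at 24 h. Among neuroendocrine genes SYP, at 5.71 to 7.59, and CHGA, at 1.44 to 2.57, were a small part of that sum. The summed level of the 6 fibroblast markers listed was 7.99 to 12.7 at 6 h, and 56.0, 9.08 and 11.6 in DMSO 24 h replicates 1, 2 and 3, with COL1A2 at 20.7 in replicate 1 and at most 1.04 in the other 5 libraries. No leukocyte marker was called, nor any fibroblast marker (1 was called higher without DMSO 6 h replicate 1), and the part that this RNA had in any result was not tested beyond leaving out that library. Of the 7 leukocyte markers 3 were tested, with a sum of 12.7 to 13.0 at 6 h and 13.2 to 15.6 at 24 h, most of it PTPRC. Of the 6 markers of other epithelial lines only TP63 was listed, and it did not pass the filter on low values.

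Many transcripts differed by a little, and few by much. Of 13782 genes tested with limma, 1362 were higher at 24 h (9.88% of those tested) and 1451 were lower (10.5%) at a Benjamini-Hochberg adjusted p below 0.05, together 20.4%. The median size of a called change was 0.27 on the log2 scale, over log2(scaled CPM + 1), and the median change over all genes tested was -0.0053. Among called genes 162 rose and 111 fell by at least 0.5, and 7 rose and 4 fell by at least 1. The 3 values of each time did not overlap for 4684 genes, or 34% of those tested.

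**Figure D1:**
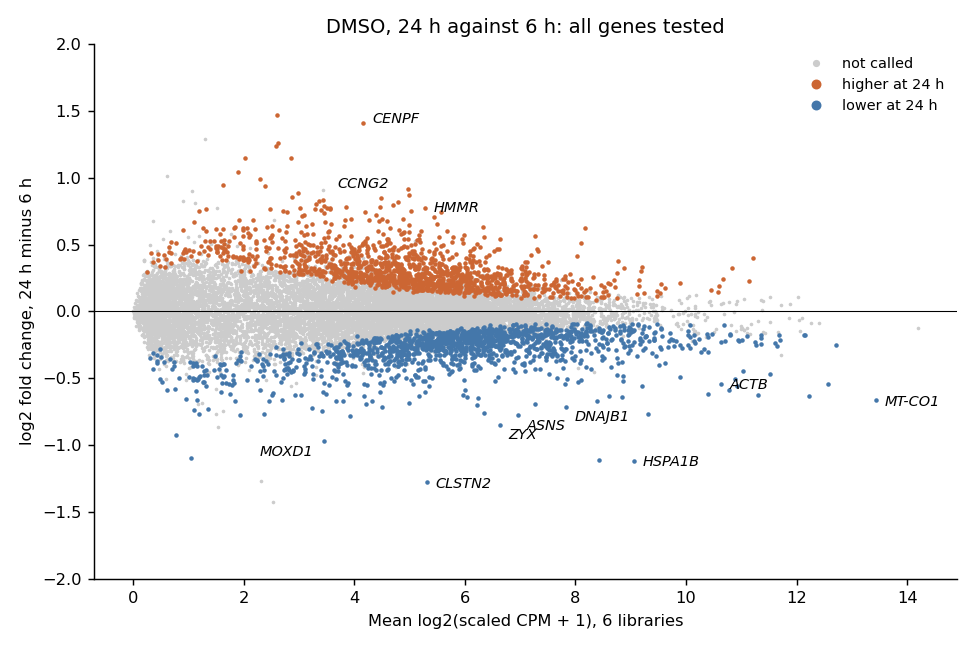
Each point is a gene tested, with its mean log2(scaled CPM + 1) over the 6 libraries on the horizontal axis and its log2 fold change, DMSO 24 h minus 6 h, on the vertical axis. Orange points were called higher (1362), blue points lower (1451) and grey points not called. Most coloured points lie within 0.5 of 0, and HSPA1B, CLSTN2 and CENPF lie beyond 1.

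HSP70 genes and several of their partners were lower at 24 h. HSPA1B, the inducible HSP70 (ENSG00000204388, chromosome 6, 31827735 to 31830255), had levels of 766, 887 and 702 at 6 h and 358, 357 and 365 at 24 h. The 24 h libraries lay close to each other and below every 6 h library, a change of -1.12 on the log2 scale (SE 0.065, adjusted p = 2.1e-19 in limma). Its near-identical neighbour HSPA1A had 491, 577 and 450 at 6 h and 233, 229 and 236 at 24 h, a change of -1.11 (adjusted p = 5.6e-18), though reads of this pair cannot be assigned with certainty. DNAJB1, the HSP40 that hands clients to HSP70 (ENSG00000132002, chromosome 19, 14514770 to 14529770), had 297, 292 and 281 at 6 h and 176, 177 and 177 at 24 h, and fell by 0.71 on the log2 scale (SE 0.047, adjusted p = 2.4e-17).

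The rest of the HSF1-responsive set moved less. Of 21 chaperones and co-chaperones tested 11 fell (52.4%, beside 10.5% of all genes) and 1 rose (4.76%, beside 9.88%). The median change of the list was -0.17. HSPH1, a nucleotide exchange factor of HSP70, fell by 0.48, and BAG3, another, by 0.43. CHORDC1, an HSP90 partner, had 114, 108 and 118 at 6 h and 81.2, 80.7 and 78.8 at 24 h (log2 fold change -0.49, adjusted p = 7.9e-13), again with no overlap. HSPA8, the constitutive HSP70, fell by 0.44 and DNAJA1, an HSP40, by 0.38. The member that rose was HSP90AA1, the inducible HSP90, with 2005, 2228 and 1983 at 6 h and 2767, 2763 and 2662 at 24 h (log2 fold change 0.40, adjusted p = 3.7e-10). HSF1 itself fell by 0.20. Leaving out 1 DMSO library gave 10 or 11 members lower, and 3 higher without DMSO 6 h replicate 2 or 2 higher without DMSO 24 h replicate 2. The letters GAANNTTC, searched on both strands in windows from 250 bases before to 50 after the start, were found in 6 of 19 members with a promoter entry (31.6%), CHORDC1, DNAJA1, HSPA1A, HSPA1B, HSPA8 and HSPB1, and in 6.77% of all 35116 promoters. That core was added after the data had been seen. The longer heat shock element, by name, was found in 3 of 19 (15.8%), CHORDC1, DNAJA1 and HSPA8, and in 0.490% of all promoters.

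Amino acid genes that ATF4 switches on were also lower at 24 h. ASNS, which makes asparagine (ENSG00000070669, chromosome 7, 97852118 to 97872542), had 162, 157 and 165 at 6 h and 92.2, 96.2 and 92.7 at 24 h. The groups were far apart relative to their spread, and the log2 fold change was -0.78 (SE 0.049, adjusted p = 5.6e-18). SLC7A5, the light chain of the large neutral amino acid transporter, fell by 0.56 and SLC3A2, its heavy chain, by 0.31. The serine pathway enzymes followed: PSAT1 had 525, 483 and 520 at 6 h and 367, 365 and 363 at 24 h (log2 fold change -0.48, adjusted p = 3.7e-13). PHGDH, the entry enzyme of that pathway, had 784, 795 and 791 at 6 h and 622, 625 and 637 at 24 h (-0.33, adjusted p = 7.5e-13). Of the tRNA synthetases, GARS fell by 0.42 and SARS by 0.41.

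Of 32 ATF4 and amino acid genes tested 14 fell (43.8%, beside 10.5% of all genes) and 2 rose (6.25%, beside 9.88%), with a median of -0.14. The members that rose are stress-linked: DDIT3, the pro-apoptotic factor CHOP, had 3.28, 3.10 and 4.34 at 6 h and 4.24, 7.35 and 4.46 at 24 h (log2 fold change 0.45, adjusted p = 0.011), where the groups overlapped, and DDIT4, an inhibitor of mTORC1, rose by 0.19. Leaving out 1 DMSO library gave 12 to 15 members lower, while the count higher was 0 without DMSO 6 h replicate 1, without DMSO 6 h replicate 2 or without DMSO 24 h replicate 2, and 1 without DMSO 24 h replicate 1. The unfolded protein response list holds the chaperones and folding enzymes of the endoplasmic reticulum. Of its 21 members 5 fell (23.8%, beside 10.5% of all genes) and 2 rose (9.52%, near the 9.88% of all genes). DNAJB11, a co-chaperone of BiP, fell by 0.32 and DNAJB9, another, rose by 0.29. That count lower was 3 in 5 of the 6 cases with a DMSO library left out (the exception was DMSO 24 h replicate 1), and the count higher was 1 without DMSO 6 h replicate 1 or DMSO 24 h replicate 1. The CARE letters were found on either strand in 6 of 25 ATF4 promoters (24.0%), those of AARS, ASNS, ATF3, CHAC1, SLC3A2 and SLC7A1, and in 3.62% of all promoters.

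**Figure D2:**
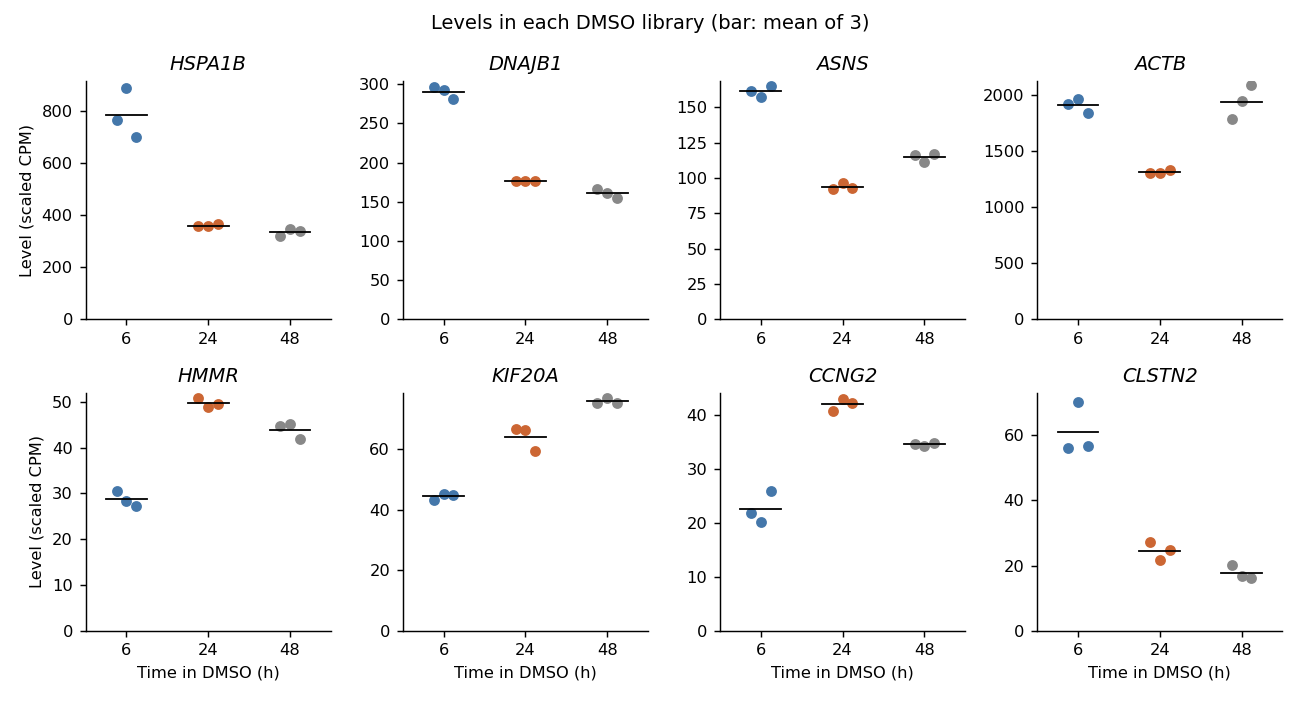
Levels of 8 genes in scaled CPM (vertical axis, from 0) in each DMSO library at 6, 24 and 48 h. Points are libraries and bars are means of 3. HSPA1B, DNAJB1, ASNS, ACTB and CLSTN2 were lower at 24 h than at 6 h and HMMR, KIF20A and CCNG2 higher, with no overlap between those times, and the ACTB values at 48 h overlapped those at 6 h.

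Actin genes fell, while most junction genes listed with them did not pass the test. ACTG1, cytoplasmic gamma actin (ENSG00000184009, chromosome 17, 81509971 to 81523847), had 6108, 5783 and 6084 at 6 h and 3793, 3873 and 3918 at 24 h. That is a log2 fold change of -0.63 (SE 0.042, adjusted p = 2.4e-17). ACTB, cytoplasmic beta actin, had 1921, 1972 and 1846 at 6 h and 1305, 1303 and 1332 at 24 h (-0.54, adjusted p = 6.7e-08). TPM4, a tropomyosin that coats actin filaments, had 495, 479 and 486 at 6 h and 316, 311 and 314 at 24 h (-0.63, adjusted p = 3.3e-22). No 6 h library overlapped a 24 h library for these 3 genes.

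CNN2, the actin-binding calponin 2, fell by 0.70, ACTN1, which crosslinks actin, by 0.32 and VCL, the adhesion protein vinculin, by 0.26. ZYX, the focal adhesion protein zyxin, which is not on the list, had 131, 148 and 118 at 6 h and 69.6, 71.6 and 77.8 at 24 h (log2 fold change -0.85, adjusted p = 1.2e-07). In all 6 of 23 actin and junction genes fell (26.1%, beside 10.5% of all genes) and 2 rose (8.7%, beside 9.88%), and the median was 0.01. Among those that rose was CTNNA1, the junction protein alpha-catenin, by 0.13. Without 1 DMSO library 5 or 6 members were lower, and 0 to 2 were higher (0 without DMSO 6 h replicate 3, and 1 without DMSO 6 h replicate 1, DMSO 24 h replicate 2 or DMSO 24 h replicate 3). A CArG box with any A or T core, a form of the motif added after the data had been seen, was found in 4 of 18 promoters of the list (22.2%), ACTG1, CNN2, FLNA and TPM4, and in 1.29% of all promoters.

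Genes of mitosis were higher at 24 h. HMMR, a spindle protein (ENSG00000072571, chromosome 5, 163460203 to 163491945), had 30.6, 28.3 and 27.2 at 6 h and 50.8, 48.8 and 49.5 at 24 h. Every 24 h library exceeded every 6 h library, and the log2 fold change was 0.77 (SE 0.057, adjusted p = 1.8e-15). KIF20A, a kinesin of cytokinesis, had 43.3, 45.4 and 45.1 at 6 h and 66.9, 66.5 and 59.3 at 24 h (0.52, adjusted p = 3.6e-10). DLGAP5, which stabilises spindle fibres, had 41.7, 46.7 and 44.5 at 6 h and 68.4, 66.7 and 61.5 at 24 h (0.55, adjusted p = 5.8e-09).

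Of 34 mitotic genes tested 27 rose (79.4%, beside 9.88% of all genes) and 0 fell, with a median of 0.24. Leaving out 1 DMSO library gave 22 or 23 higher. The central regulators rose by less: CDK1, the mitotic kinase, by 0.17, CCNB1, its cyclin, by 0.20, AURKA by 0.22 and PLK1 by 0.19. FOXM1, a factor that drives mitotic genes, had a change of 0.0041 (adjusted p = 0.98) and BIRC5, the survivin of the chromosomal passenger complex, -0.05 (adjusted p = 0.51). In RNA from a whole culture, more cells in mitosis and more mitotic RNA per cell cannot be told apart. The TTTGAA letters occurred on either strand in 19 of 28 mitosis promoters (67.9%) and in 15.2% of all promoters, and CCAAT, the NF-Y motif, in 24 of 28 (85.7%) and in 34.6%.

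CENPF, a kinetochore protein and the largest rise among genes with a mean log2 level of at least 3 (ENSG00000117724, chromosome 1, 214603195 to 214664588), had 7.59, 16.3 and 7.99 at 6 h and 30.3, 28.2 and 26.3 at 24 h. The log2 fold change was 1.41 (SE 0.24, adjusted p = 1.6e-05), and the DMSO 6 h replicate 2 value was the highest of its group. CENPE, a kinetochore motor named after its values were seen, had 2.08, 4.27 and 2.00 at 6 h and 11.1, 8.25 and 8.30 at 24 h (log2 fold change 1.47, adjusted p = 7.8e-07). Here too DMSO 6 h replicate 2 was the highest 6 h library. Replication genes went both ways, with 9 of 35 higher (25.7%, beside 9.88% of all genes) and 5 lower (14.3%, beside 10.5%). The median of that list was -0.017. CDC45, a subunit of the replicative helicase, had 52.0, 47.4 and 55.0 at 6 h and 74.3, 71.3 and 75.0 at 24 h (0.51, adjusted p = 1.3e-09), whereas PCNA, the sliding clamp, had 556, 506 and 572 at 6 h and 459, 456 and 449 at 24 h (-0.26, adjusted p = 3.6e-05). UNG, a uracil DNA glycosylase, fell by 0.37 and the G1/S factor E2F1 by 0.36.

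**Figure D3:**
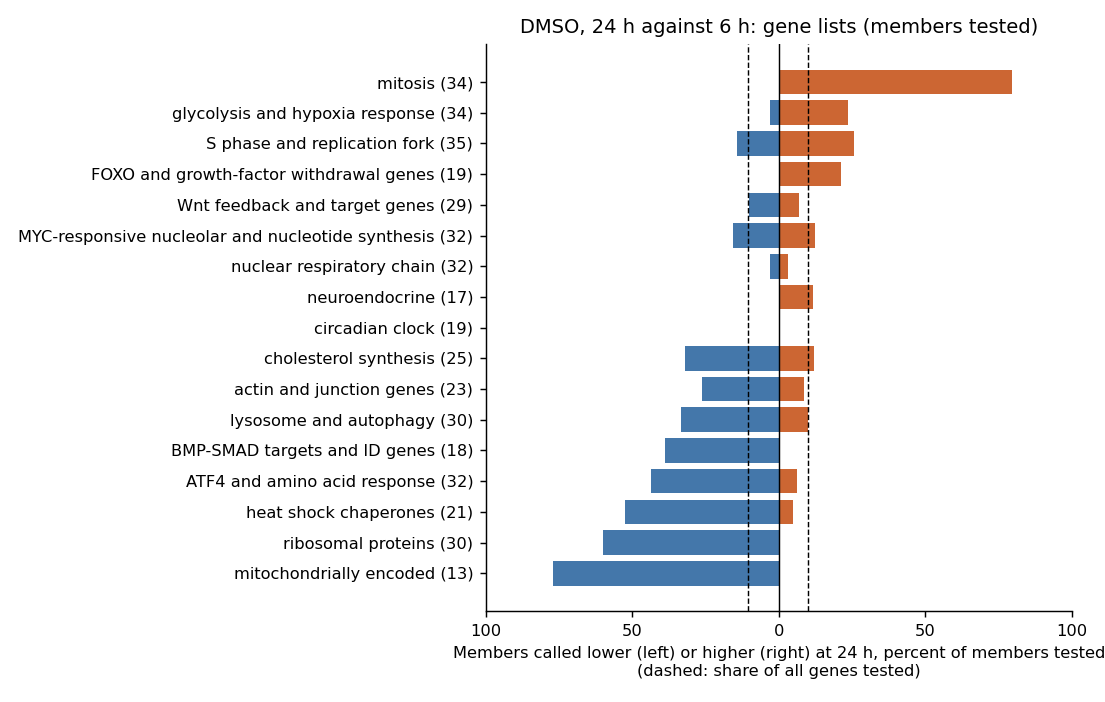
Share of the tested members of 17 gene lists called lower (blue, to the left) or higher (orange, to the right) at 24 h, in percent of the members tested, whose number stands in brackets. Dashed lines mark the shares over all genes tested, 10.5% lower and 9.88% higher. Mitosis reaches furthest to the right, 27 of 34, and mitochondrially encoded transcripts, 10 of 13, ribosomal proteins, 18 of 30, and heat shock chaperones, 11 of 21, reach furthest to the left.

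The other genes that rose most were long and diverse. CCNG2, an unconventional cyclin linked to cell cycle exit (ENSG00000138764, chromosome 4, 77157151 to 77433388), had 21.8, 20.2 and 25.9 at 6 h and 40.8, 43.1 and 42.3 at 24 h. It rose by 0.87 (SE 0.062, adjusted p = 5.1e-16) with no overlap. CCDC88A, the actin-associated protein girdin, had 18.2, 28.8 and 19.6 at 6 h and 43.8, 41.6 and 40.1 at 24 h (0.91, adjusted p = 2e-06), with DMSO 6 h replicate 2 the highest 6 h library. DAAM1, a formin in Wnt planar polarity signalling, rose by 0.81, TPR, a nuclear pore protein, by 0.85, and BRCA2, a protein of homologous recombination, by 0.83. CBR4, a mitochondrial reductase, had 20.5, 16.9 and 18.9 at 6 h and 35.2, 34.2 and 30.8 at 24 h (0.80, adjusted p = 1e-11). The other rises of this size were BOD1L1, CEP350, ANKRD26, DYNC2H1, DCAF16, ZGRF1 and KIF15, at 0.77 to 0.83.

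In the DMSO libraries at 6 and 24 h, length and base composition went with the direction of change. The 15 largest rises had a median exonic length of 10710 bases and a median GC content of 39.3%, the 15 largest falls 4419 bases and 53.1%, and all genes tested 4935 bases and 48.1%. In the quintile of genes with the lowest GC content 17.5% were called higher and 5.78% lower, against 5.45% and 11.8% in the quintile with the highest. The longest quintile had 14.1% higher and 7.88% lower, and the shortest 4.86% and 10.3%. Median changes in the shortest and longest quintiles were -0.026 and 0.036 in DMSO. With Helicon 4-neg, averaged over its doses, they were 0.0140 and 0.0135 over the same times. In the lowest and highest quintiles of GC content they were 0.045 and -0.052 in DMSO, and 0.0087 and 0.0063 with Helicon 4-neg. From 24 to 48 h in DMSO the order turned, to 0.18 and -0.18 for length and -0.12 and 0.070 for GC content. After removing each library's trend on both properties the shares higher were 12.4% and 10.3% in the lowest and highest quintiles of GC content, and 10.9% and 7.84% in the longest and shortest. The shares lower were then 14.9% and 9.12% in the lowest and highest quintiles of GC content, and 14.5% and 10.3% in the longest and shortest, so that their order in length and in GC content turned. With those trends removed CENPF had 1.33, CCDC88A 0.81, CCNG2 0.82, HMMR 0.73, HSPA1B -1.08 and ASNS -0.76, and 27 of 34 mitotic genes were higher. The part of length and GC content in the smaller changes was not tested.

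**Figure D4:**
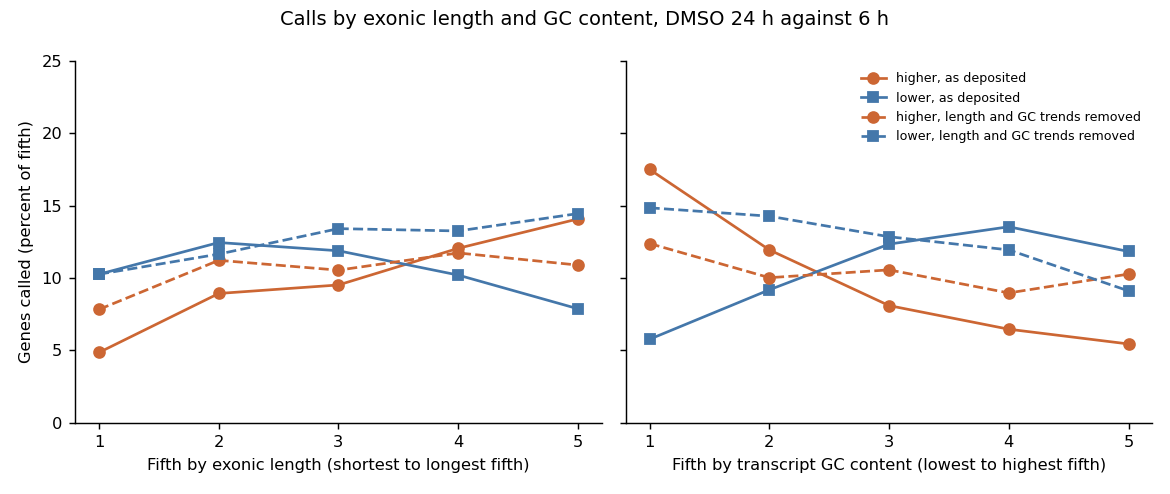
Percent of genes called higher (orange circles) or lower (blue squares) at 24 h in each quintile of the genes tested, ordered by exonic length (left) or GC content (right). Solid lines are the deposited values and dashed lines the values after removing each library's trends. The solid orange line runs from 4.86% in the shortest to 14.1% in the longest genes and from 17.5% at the lowest to 5.45% at the highest GC content, and the dashed orange lines are flatter.

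Ribosomal and mitochondrial transcripts were lower at 24 h, and the number of them called depended on single libraries. RPL11, a protein of the large ribosomal subunit, had 1526, 1368 and 1601 at 6 h and 1119, 1254 and 1273 at 24 h (log2 fold change -0.30, adjusted p = 0.00012). The groups did not overlap, but DMSO 6 h replicate 2 lay nearest the 24 h values. Of 30 ribosomal protein genes 18 fell (60%, beside 10.5% of all genes) and 0 rose, with a median of -0.18. The count lower was 27 without DMSO 6 h replicate 2, 11 without DMSO 6 h replicate 1, 9 without DMSO 6 h replicate 3 and 11 without DMSO 24 h replicate 1.

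MT-CO1, a subunit of cytochrome c oxidase encoded by mitochondrial DNA (ENSG00000198804, chromosome M, 5904 to 7445), had 13955, 14275 and 13597 at 6 h and 8344, 9078 and 8978 at 24 h (log2 fold change -0.66, SE 0.17, adjusted p = 0.0035). Its SD was 339 at 6 h and 398 at 24 h in DMSO. With Helicon 4-neg at 48 h the SD was 5159 at 3 µM and 4426 at 1 µM. Those libraries enter the pooled spread behind the SE. The 13 mitochondrial transcripts made up 4.26% to 4.58% of a library's values at 6 h and 2.91% to 3.24% at 24 h. Of these 13 genes 10 fell (76.9%, beside 10.5% of all genes) and 0 rose, with a median of -0.59. The count lower was 6 without DMSO 6 h replicate 2 and 5 without DMSO 24 h replicate 1. MT-ND5, a subunit of complex I, had 800, 1052 and 673 at 6 h and 459, 501 and 501 at 24 h (-0.77, adjusted p = 0.018), and its call was lost without either of those libraries. Among nuclear genes of the respiratory chain 1 of 32 was higher and 1 lower, shares below those over all genes, with a median of -0.0036. Without 1 DMSO library that count lower was 0 (without DMSO 6 h replicate 1, DMSO 6 h replicate 3, DMSO 24 h replicate 2 or DMSO 24 h replicate 3) to 2 (without DMSO 6 h replicate 2). In total a library's 20 highest genes took 11.3% to 11.9% of the values at 6 h and 10.2% to 10.6% at 24 h.

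Genes downstream of BMP signalling fell where they changed. SMAD9, a receptor-activated SMAD (chromosome 13), had 21.2, 19.3 and 16.6 at 6 h and 12.0, 9.73 and 10.1 at 24 h (log2 fold change -0.78, adjusted p = 4.4e-09). ID3, an inhibitor of basic helix-loop-helix factors, had 65.6, 57.8 and 61.7 at 6 h and 45.4, 45.9 and 42.8 at 24 h (-0.45, adjusted p = 3.9e-08). Neither overlapped between the times. The homeobox genes MSX2 and MSX1 fell by 0.58 and 0.36. In all 7 of 18 members fell (38.9%, beside 10.5% of all genes), with 0 higher and a median of -0.17.

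Lipid and lysosome genes were more often lower than higher. ACSS2, which makes acetyl-CoA from acetate, had 27.4, 27.0 and 29.1 at 6 h and 17.1, 17.4 and 15.4 at 24 h (log2 fold change -0.71, adjusted p = 8.4e-13), with no overlap. SCD, the stearoyl-CoA desaturase, fell by 0.40. Of 14 fatty acid synthesis genes 5 fell (35.7%, beside 10.5% of all genes) and 2 rose (14.3%, beside 9.88%). SREBF2, the master factor of cholesterol synthesis, fell by 0.43, while STARD4, a sterol carrier that it induces, rose by 0.33. Of 25 cholesterol genes 8 fell (32%, beside 10.5% of all genes) and 3 rose (12%, near the 9.88% of all genes). That count lower was 5 without DMSO 6 h replicate 3, and the count higher was 1 without DMSO 6 h replicate 1 or DMSO 24 h replicate 1. LAMP1, a membrane protein of lysosomes, fell by 0.33. Of 30 lysosome and autophagy genes 10 fell (33.3%) and 3 rose (10%, near the share of all genes). The count lower was 6 without DMSO 24 h replicate 2.

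Among genes raised when growth factors or oxygen run low, more were higher than lower at 24 h. TXNIP, a glucose-responsive inhibitor of thioredoxin, had 48.8, 47.2 and 46.7 at 6 h and 62.3, 56.8 and 60.4 at 24 h (log2 fold change 0.32, adjusted p = 7e-06). With CCNG2 it was among the 4 of 19 FOXO and growth-factor withdrawal genes that rose (21.1%, beside 9.88% of all genes; 0 fell), a count that was 2 without DMSO 6 h replicate 2. CDKN1B, the cell cycle inhibitor p27, had 115, 112 and 122 at 6 h and 148, 144 and 145 at 24 h (0.32, adjusted p = 4.7e-09). Of 34 glycolysis and hypoxia genes 8 rose (23.5%), among them PDK1, the kinase that shuts off pyruvate dehydrogenase, by 0.27. The 1 that fell was SLC2A1, the glucose transporter GLUT1, with 175, 175 and 168 at 6 h and 148, 142 and 151 at 24 h (-0.23, adjusted p = 0.00026), and that count was 2 without DMSO 6 h replicate 2 or DMSO 6 h replicate 3.

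In the Wnt pathway AXIN2, CTNNB1 and MYC were not called between the times. AXIN2, a feedback inhibitor of β-catenin, had 184, 197 and 183 at 6 h and 203, 197 and 206 at 24 h, with a log2 fold change of 0.11 (95% interval 0.01 to 0.20, adjusted p = 0.13), and 0.13 (adjusted p = 0.017) with length and GC trends removed. CTNNB1, the β-catenin gene, had 417, 414 and 412 at 6 h and 420, 432 and 430 at 24 h (0.04, interval -0.04 to 0.13, adjusted p = 0.50). MYC had 3774, 4055 and 3636 at 6 h and 3729, 3564 and 3784 at 24 h (-0.05, interval -0.15 to 0.05, adjusted p = 0.54), and these groups overlapped. Of 29 Wnt feedback and target genes 2 rose, PROX1 by 0.47 and NKD2 by 0.26, and 3 fell, TCF7 by 0.35, APCDD1 by 0.20 and KREMEN1 by 0.15, shares below those over all genes for the rises and near them for the falls. The rises were 0 without DMSO 6 h replicate 1, DMSO 6 h replicate 3, DMSO 24 h replicate 1 or DMSO 24 h replicate 3 and 1 without DMSO 24 h replicate 2, and the falls were 1 without DMSO 6 h replicate 2, DMSO 24 h replicate 1 or DMSO 24 h replicate 2. TCF7 was at -0.20 without DMSO 6 h replicate 2. Of 27 Wnt receptors and transducers 2 rose (7.41%) and 5 fell (18.5%, beside 10.5% of all genes), with 3 lower without DMSO 6 h replicate 2, DMSO 24 h replicate 2 or DMSO 24 h replicate 3, and 1 higher without DMSO 6 h replicate 1. Of 32 MYC-responsive nucleolar and nucleotide synthesis genes 4 rose (12.5%, beside 9.88% of all genes), led by PAICS, a purine enzyme, at 0.33, and 5 fell (15.6%), led by SRM, which makes spermidine, at -0.25.

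The remaining large falls, apart from the epithelial marker EPCAM, belonged to no list. CHGA, a neuroendocrine gene that was not called, and HDC, which rose, are given with them. CLSTN2, a calsyntenin of the cell surface (ENSG00000158258, chromosome 3, 139935185 to 140577397), had the largest fall among genes with a mean log2 level of at least 3, from 55.9, 70.3 and 56.6 at 6 h to 27.1, 21.8 and 24.7 at 24 h (log2 fold change -1.28, SE 0.11, adjusted p = 1.1e-13). MOXD1, a monooxygenase of the endoplasmic reticulum, went from 13.4, 14.9 and 15.0 to 7.54, 6.82 and 6.26 (-0.97, adjusted p = 8e-13). Neither gene's groups overlapped. ITGA9, an integrin subunit, fell by 0.74 and MMP15, a membrane-bound metalloproteinase, by 0.72. TXNDC5, a disulfide isomerase, had 103, 106 and 106 at 6 h and 55.3, 48.3 and 87.9 at 24 h (-0.76, adjusted p = 0.01), with DMSO 24 h replicate 3 far above the other two, and its call was lost without DMSO 24 h replicate 1 or DMSO 24 h replicate 2. LTBP4, a binding protein of latent TGF-β, fell by 0.69, and had -0.44 (adjusted p = 0.095) without DMSO 6 h replicate 2, its call being lost also without DMSO 24 h replicate 2. EPCAM was called lower at -0.62 (adjusted p = 0.026) at levels near the floor, a call lost without DMSO 6 h replicate 1 or DMSO 24 h replicate 1, and CHGA had -0.10 (adjusted p = 0.74). HDC, which makes histamine, rose by 0.37, from 117, 115 and 122 to 156, 150 and 153 (adjusted p = 6.5e-07).

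The DMSO libraries at 48 h show where these levels went, and share the 24 h libraries with the comparison above. From 24 to 48 h 3101 genes were higher (22.5%) and 3914 lower (28.4%), together 50.9%, or 4351 higher and 2764 lower after centring each library on its median. HSPA1B had 321, 346 and 337 at 48 h, close below its 24 h values, and DNAJB1 had 166, 161 and 155. ASNS had 117, 112 and 117, between its 6 h and 24 h levels, and ACTG1 had 4538, 4550 and 4777. ACTB had 1793, 1948 and 2089, which overlapped the 6 h values. CLSTN2 and MOXD1 were lower still, at 20.2, 16.8 and 16.1 and at 4.48, 4.83 and 4.49. HSPA8 had 857, 785 and 739 beside 1793, 1806 and 1788 at 24 h. CENPF had 46.9, 55.2 and 51.7, above its 24 h values, and HMMR 44.8, 45.2 and 41.8, below them. MT-CO1 had 17545, 17575 and 17989, above both earlier times, and the mitochondrial share was 5.58% to 5.79%.

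Helicon 4-neg, which the labels set beside Helicon 4, gave a comparison of the same 2 times in other libraries. Averaged over its 3 doses, 3056 genes were higher at 24 h than at 6 h (22.2%) and 2966 lower (21.5%), together 43.7%, from 9 libraries a time where DMSO had 3. Of the 2813 genes called in DMSO 2759 (98.1%) had the same sign with Helicon 4-neg, beside 76.6% of all genes tested. Genes called in both with the same sign numbered 2455, which is 87.3% of the DMSO calls and 40.8% of the Helicon 4-neg calls. Across the genes tested, which are not independent replicates, the changes had a Pearson r of 0.743 and a Spearman rho of 0.713. These sets share no library, though both share their harvest times.

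Mean changes with Helicon 4-neg lay close to those with DMSO for the leading falls. HSPA1B had medians of 713, 683 and 877 at 6 h and 354, 332 and 322 at 24 h with 1, 3 and 10 µM. Its mean change was -1.15, and the DMSO change minus this was 0.03 (95% interval -0.12 to 0.18). ASNS had medians of 179.6, 179.5 and 178 at 6 h and 92.6, 103 and 116 at 24 h, and a difference of -0.0043 (interval -0.12 to 0.11). Its levels at 3 and 10 µM lay above those in DMSO at both times, and those at 1 µM at 6 h only. In DMSO the levels were 157 to 165 at 6 h and 92.2 to 96.2 at 24 h. With 10 µM they were 178 to 179 and 116.1 to 116.5, with 3 µM 168 to 182 and 102 to 104. With 1 µM they were 168 to 181 and 90.6 to 92.8. CLSTN2 changed by -1.18, a difference of -0.10 (interval -0.34 to 0.14). For CCNG2 the change was 0.89 and the difference -0.01 (interval -0.16 to 0.13). CENPF had medians of 22.5, 10.6 and 10.9 at 24 h with 1, 3 and 10 µM beside 28.2 in DMSO, a mean change of 1.12 and a difference of 0.29 (interval -0.28 to 0.85). The 24 h libraries of 1 µM had 8.94% to 13.1% of the variance of their deviations on length and GC content, those of 3 and 10 µM 1.28% to 5.08%. Over all genes tested 22.2% rose and 21.5% fell with Helicon 4-neg, and the list counts are to be read beside those shares. In the mitosis list 30 of 34 rose and 0 fell. The heat shock list had 11 of 21 lower and 6 higher, the rises not far from the share of all genes. In the ATF4 list 22 of 32 fell and 2 rose. Mitochondrial transcripts had a smaller median with Helicon 4-neg, -0.21, with 5 of 13 lower. For MT-CO1 the DMSO change minus the Helicon 4-neg change was -0.37 (interval -0.77 to 0.03).

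**Figure D5:**
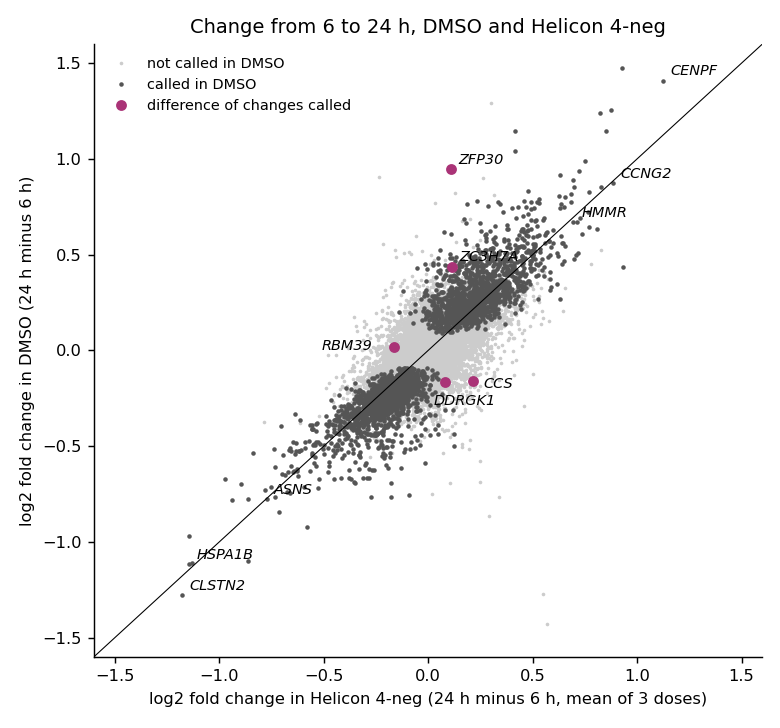
Each point is a gene tested, with its log2 fold change from 6 to 24 h in Helicon 4-neg (mean of 3 doses) on the horizontal axis and in DMSO on the vertical axis; dark points were called in DMSO and the line marks equal changes. Purple points are 5 of the 6 genes whose changes differed between DMSO and Helicon 4-neg. Most dark points lie in the lower left and upper right, with 98.1% of them on the same side of 0 in both.

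A test of the difference between the changes called 6 of 13782 genes (0.0435%) by limma, 4 with a higher (0.029%) and 2 with a lower value in DMSO (0.0145%). At an unadjusted p below 0.05 it was 1089 (7.90%), and edgeR on whole reads called 8. Among them are ZFP30, ZC3H7A, RBM39, CCS and DDRGK1. ZFP30, a zinc finger protein, had 1.04, 1.80 and 0.913 at 6 h and 3.50, 3.53 and 2.84 at 24 h in DMSO (log2 fold change 0.95, adjusted p = 3.9e-06), beside a change of 0.11 with Helicon 4-neg. ZC3H7A had 31.6, 31.7 and 29.3 at 6 h and 44.0, 42.8 and 39.8 at 24 h in DMSO (0.44), beside a change of 0.11 with Helicon 4-neg. In DMSO the 6 and 24 h libraries of these genes did not overlap. The count was 0 without DMSO 6 h replicate 1, DMSO 6 h replicate 3 or DMSO 24 h replicate 1 and 1 without DMSO 24 h replicate 2.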

How the data were processed

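RNA-seq of COLO320DM was analysed from the table the authors deposited, which gives 1 signal value per gene and library. Per the submitters' processing notes the tools were Trimmomatic 0.39, STAR 2.7.7a, featureCounts of Subread 2.4.2 and edgeR 4.0.2 with GRCh38; the annotation and the use of strand are not given in the sources used here. Each deposited signal behaved as CPM divided by a library factor: 100% of values were whole multiples of 1 read (tolerance 0.01 read, 1 read worth 0.0324 to 0.0570), so whole reads were recovered. Counting error is the only error that depth covers.

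limma 3.58.1 (R 4.3.3, trend) was fitted to log2(value + 1) of 63 libraries with 1 coefficient per group of 3 (42 residual degrees of freedom), for 13782 genes at 0.5 or more in at least 3 libraries. The pseudocount shrinks changes of low genes. P-values are two-sided, adjusted by Benjamini and Hochberg over all genes tested. Contrasts were DMSO 24 h minus 6 h, DMSO 48 h minus 24 h, Helicon 4-neg 24 h minus 6 h over 3 doses, and the DMSO 24 h minus 6 h change minus that with Helicon 4-neg. Lengths came with the table. Coordinates and GC content (13943 genes) came from GENCODE 29, and promoters from RefSeq.

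Named genes were the 15 largest rises and falls (called, mean log2 level at least 3, no overlap), up to 4 members with the smallest p of each of 40 lists, and MYC, CTNNB1, AXIN2, TXNIP, EPCAM and CHGA, of which the text names part. Other list members were named after their values were seen. The members and lists were chosen with earlier results of these data known, and 2 motifs were added after seeing these values. The fit was tested on simulated data. Alternatives were the DMSO libraries alone (6 or 9), robust empirical Bayes, median centring, no filter, a pseudocount of 0.1, the replicate number as a block, edgeR 4.0.16 (quasi-likelihood) on whole reads, removal of length and GC trends, and leaving out each library. Some genes are not reported here.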

Additional observations from a re-analysis of the deposited data

Results flagged for a closer look

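For 6 genes, of which 5 are given, the change from 6 to 24 h differed between DMSO and Helicon 4-neg by the test of that difference, given here on the log2 scale as the DMSO change minus the Helicon 4-neg change. It was 0.838 for ZFP30, 0.324 for ZC3H7A, a CCCH zinc finger protein, and 0.182 for RBM39, a splicing factor. It was -0.373 for CCS, the copper chaperone of superoxide dismutase, and -0.243 for DDRGK1, a protein of the UFM1 pathway. Their adjusted p-values in limma were 0.043 to 0.045. Groups of 3 libraries are too small for a check of single outlying values.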

How the results depend on the processing

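The counts for DMSO 24 h against 6 h were 984 to 1349 higher and 1099 to 1376 lower when 1 DMSO library was left out, 1131 and 1655 after median centring and 1438 and 1736 after removing length and GC trends. The residual correlations of same-numbered libraries were 0.14, -0.26 and 0.12, beside -0.29 to 0.28 for differently numbered libraries. Residuals were taken from the mean of each 3 libraries, so these values constrain each other. They cannot show whether the replicate number paired the libraries. With the replicate block the 63 libraries gave 1368 higher and 1462 lower, and the 6 DMSO libraries alone gave 593 and 652, beside 913 and 1081 without the block; too few residual degrees of freedom remain in that fit for its lost calls to be read as weaker effects. The 6 genes whose changes differed from Helicon 4-neg became 0 with robust empirical Bayes (1057 at an unadjusted p below 0.05) and 3 with median centring. They became 0 with length and GC trends removed (951 unadjusted), and 0 to 8 when 1 DMSO library was left out, so that list is fragile. Among the lists, median centring gave 5 glycolysis and hypoxia genes higher and 2 lower, 1 cholesterol gene and 1 ATF4 gene higher, and 8 Wnt receptors and transducers lower; removing trends gave 3 chaperones, 4 Wnt targets, 4 actin and junction genes and 4 unfolded protein response genes higher, 8 fatty acid genes lower, and 2 nuclear respiratory chain genes higher and 2 lower. Of 184 named genes 139 were called, 100 of these kept their call and direction under every alternative listed, and 0 changed sign. Genes not called did: with 1 DMSO library left out CHGA ranged from -0.27 to 0.0076, ITGAM from -0.032 to 0.011 and MT1G from -0.013 to 0.27, changing sign without DMSO 6 h replicate 3. RBM39 had -0.0012 with median centring and -0.043 with length and GC trends removed, which also put ITGAM at 0.015 and the 48 h minus 24 h change of DDRGK1 at -0.029. The causes were not tested. Genes near 1 scaled CPM rest on few reads.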

Other observations

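Other genes on the lists changed with time in DMSO. SRSF5, a splicing factor, had 80.4, 78.0 and 84.4 at 6 h, 112, 114 and 111 at 24 h and 157, 172 and 161 at 48 h (24 h against 6 h: log2 fold change 0.47, limma adjusted p = 6e-13). RBM3, a cold-inducible RNA-binding protein, had 296, 278 and 307 at 6 h and 250.4, 262 and 248 at 24 h (-0.21, adjusted p = 0.0027). HBP1, a repressor of cell cycle genes, had 14.5, 13.4 and 14.7 at 6 h and 20.6, 21.2 and 21.1 at 24 h (0.53, adjusted p = 1.9e-05). In none of these 3 genes did the 6 and 24 h libraries overlap.

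Among death regulators, HRK, a BH3-only activator of apoptosis, had 2.28, 2.05 and 1.65 at 6 h and 0.453, 1.15 and 0.730 at 24 h (-0.77, adjusted p = 9e-05). BCL2L11, the BH3-only protein BIM, had 47.8, 50.2 and 50.5 at 6 h and 40.7, 43.1 and 41.9 at 24 h (-0.24, adjusted p = 0.0026). Of 21 apoptosis regulators 5 fell (23.8%, beside 10.5% of all genes) and 2 rose (9.52%, near the 9.88% of all genes). The count lower was 3 without DMSO 6 h replicate 3, DMSO 24 h replicate 1 or DMSO 24 h replicate 3. Of 24 p53 targets 3 rose (12.5%, beside 9.88% of all genes), led by DDB2, a sensor of ultraviolet damage, at 0.40, and 2 fell (8.33%, beside 10.5%), AEN, an exonuclease, by 0.33 and TIGAR, a fructose bisphosphatase, by 0.32. With length and GC trends removed 5 were higher and 4 lower.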
